A study of Mus musculus with 34 samples.

Results

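The genes described here are 8 milk and alveolar genes of the mouse mammary gland, taken by name from the 32285 genes of the single-cell tables: Lalba, Csn1s1, Csn2, Csn3, Wap, Elf5, Plet1 and Trf. They were read in cells with at least 1 Epcam UMI and no Ptprc UMI, and in cells with at least 1 Ptprc UMI and no Epcam UMI. A UMI is a molecular tag that counts 1 captured transcript. Epcam encodes an adhesion protein of epithelial cells, and Ptprc encodes CD45, the surface protein of all nucleated blood cells.

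The series holds 34 samples around mammary tumours of the MMTV-Wnt1 type, in which a viral promoter active in mammary epithelium drives the Wnt1 growth factor. Tumour cells were transplanted into C57BL6j mice, so the epithelial cells read here descend from a graft, and in the pooled tumour table, described last, the hosts were 6 to 8 week old wild-type females with tumours of about 200 mm3. From digested tumours, CD45-positive cells were pulled out magnetically in 4 libraries (2 untreated, 2 after doxorubicin), and CD4- or CD8-positive T cells in 6 libraries. Epithelial cells in all 10 libraries are therefore cells that came along with the immune sort, and how they relate to the whole tumour was not measured.

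The untreated groups received nothing. The doxorubicin groups received 5 consecutive doses of 4 mg/kg of this topoisomerase poison and were harvested 48 h after the last. In the 4 antibody arms of the T cell sort, mice had the same doxorubicin and, 48 h later, 3 injections 72 h apart, with harvest 24 h after the last. The injections were 200 µg anti-PD1 with 200 µg IgG, 200 µg anti-CTLA4 with 200 µg IgG, 200 µg of each antibody, or 400 µg IgG. Each of the 6 T cell groups is 1 library, so their values have no replicate check and no test. The labels do not say whether the 2 libraries of a CD45 group came from separate mice, so p-values measure the spread between those libraries only.

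Milk proteins are made by alveolar cells, which differentiate from luminal progenitors in pregnancy when prolactin activates the transcription factor STAT5. Lalba (alpha-lactalbumin, a subunit of the enzyme that makes lactose), the caseins Csn1s1, Csn2 and Csn3, and Wap (whey acidic protein) are the secreted products. Elf5 is the transcription factor that drives alveolar fate. Plet1 is a surface protein of luminal progenitors, and Trf is transferrin, an iron carrier that mammary epithelium secretes and that liver and other cells also make.

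The 3 casein genes lie on chromosome 5 of GRCm38.p6, the build of the files. Csn1s1 occupies chr5:87666208-87682578 and Csn2 chr5:87692619-87699429, with 10040 bases between them, and Csn3 follows at chr5:87925579-87932550. Lalba is at chr15:98480400-98482934, Wap at chr11:6635483-6638654, Elf5 at chr2:103412098-103450989, Plet1 at chr9:50494525-50505639 and Trf at chr9:103208876-103230286. RefSeq promoter sequences were matched for 6 of the 8 genes, Csn3 and Trf being the others. The 250 bases before the start of Csn1s1 (chr5:87665958-87666207, plus strand) are shown. Csn1s1 was chosen as the only member to pass the doxorubicin test in epithelial cells of the CD45 sort. Capitals mark a match to TTCNNNGAA, the palindromic letters of a STAT5-type site, which lies 100 bases before the start.
Csn1s1: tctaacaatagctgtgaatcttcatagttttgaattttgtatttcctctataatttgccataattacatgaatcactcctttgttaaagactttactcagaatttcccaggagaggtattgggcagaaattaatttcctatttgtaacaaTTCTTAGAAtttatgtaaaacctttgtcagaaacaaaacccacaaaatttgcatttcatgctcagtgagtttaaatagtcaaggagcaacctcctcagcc

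Csn2, its neighbour on the opposite strand, has such a match 93 bases before its start. The 29 bases around each match are set side by side, 5′ to 3′ on each gene's own strand (chr5:87666098-87666126, plus, and chr5:87699500-87699528, minus), because the 2 genes share the motif while their levels differed.
Csn1s1 window: tttgtaacaaTTCTTAGAAtttatgtaaa
Csn2 window: tcacgtagacTTCTTGGAAttgaagggac
The same letters were not in the 250 bases before the starts of Lalba, Wap, Elf5 (both starts listed) or Plet1. They were in 2306 of 32851 promoter windows of that length on either strand (7.02%). A match of letters is not a measured site.

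Libraries held 16908180 to 93748407 UMIs in 1541 to 8529 barcodes. After the filters for UMIs, genes and mitochondrial share, 83 to 1578 cells per sorted library were Epcam-positive and Ptprc-negative, with median depths of 12598.5 to 39800 UMIs. At least 3 of 8 luminal markers were found in 80.1 to 96.1% of them, and no luminal marker was at 0 in any library. Immune RNA was present too. In the CD45 sort, cells with 3 or more neutrophil markers made up 4.05 and 1.61% of the untreated and 63.9 and 22.0% of the doxorubicin epithelial cells, and the summed level of the neutrophil markers was 0.65, 0.14, 113 and 4.91 UMIs per 10000. For macrophage or monocyte markers the shares were 18.7, 26.9, 12.05 and 5.68%. No doublet caller was run, and cells joined in 1 droplet were not told apart from cells carrying free RNA.

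The number of epithelial cells itself differed in the CD45 sort. They were 15.9 and 10.4% of kept cells in the untreated libraries and 5.61 and 6.61% after doxorubicin, means of 13.1 ± 3.90 and 6.11 ± 0.71% (SD, n = 2 each). The groups did not overlap, but the exact two-sided permutation test of 2 against 2 cannot go below p = 0.333, the value it gave. In the T cell sort the share was 13.03% untreated, 19.9% at 48 h, and 24.8, 8.45, 3.74 and 8.33% in the anti-PD1, anti-CTLA4, both-antibody and IgG arms. Cells with UMIs of both Epcam and Ptprc are in neither gate. They were 13.1 and 9.52% of kept cells untreated and 10.1 and 3.65% after doxorubicin in the CD45 sort, and 8.23 to 15.0% in the T cell sort. Over the sorted libraries they held 22.4 to 52.7% of the Csn3 UMIs of kept cells, so the epithelial gate leaves out part of the milk RNA. The levels below are per 10000 UMIs of the epithelial cells, so they do not scale with the number of such cells. Where few came through, a handful of cells can still set a level. In the first doxorubicin library, with 83 such cells, Lalba went from 2.54 to 0.231 without its 10 highest cells. Immune RNA in these cells also counts in the 10000.

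In epithelial cells the 8 genes spanned more than 3 orders of level. These are 3′ tag counts, 1 per molecule, which do not scale with transcript length. Csn3 was the highest in every sorted library, from 19.2 to 45.7 UMIs per 10000, and was found in 64.3 to 91.5% of cells. Trf followed at 8.23 to 26.1 and Plet1 at 2.60 to 10.1. Elf5 lay between 1.22 and 2.07, while Lalba lay between 0.274 and 2.54 and Csn1s1 between 0.169 and 1.37. Csn2 ranged from 0.00387 to 4.69. Wap was the lowest in 9 of the 10 libraries, at 0.00142 to 0.0142, which is 1 to 46 UMIs per library, and in the second untreated CD45 library Csn2 was lower still with 3 UMIs.

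**Figure D1:**
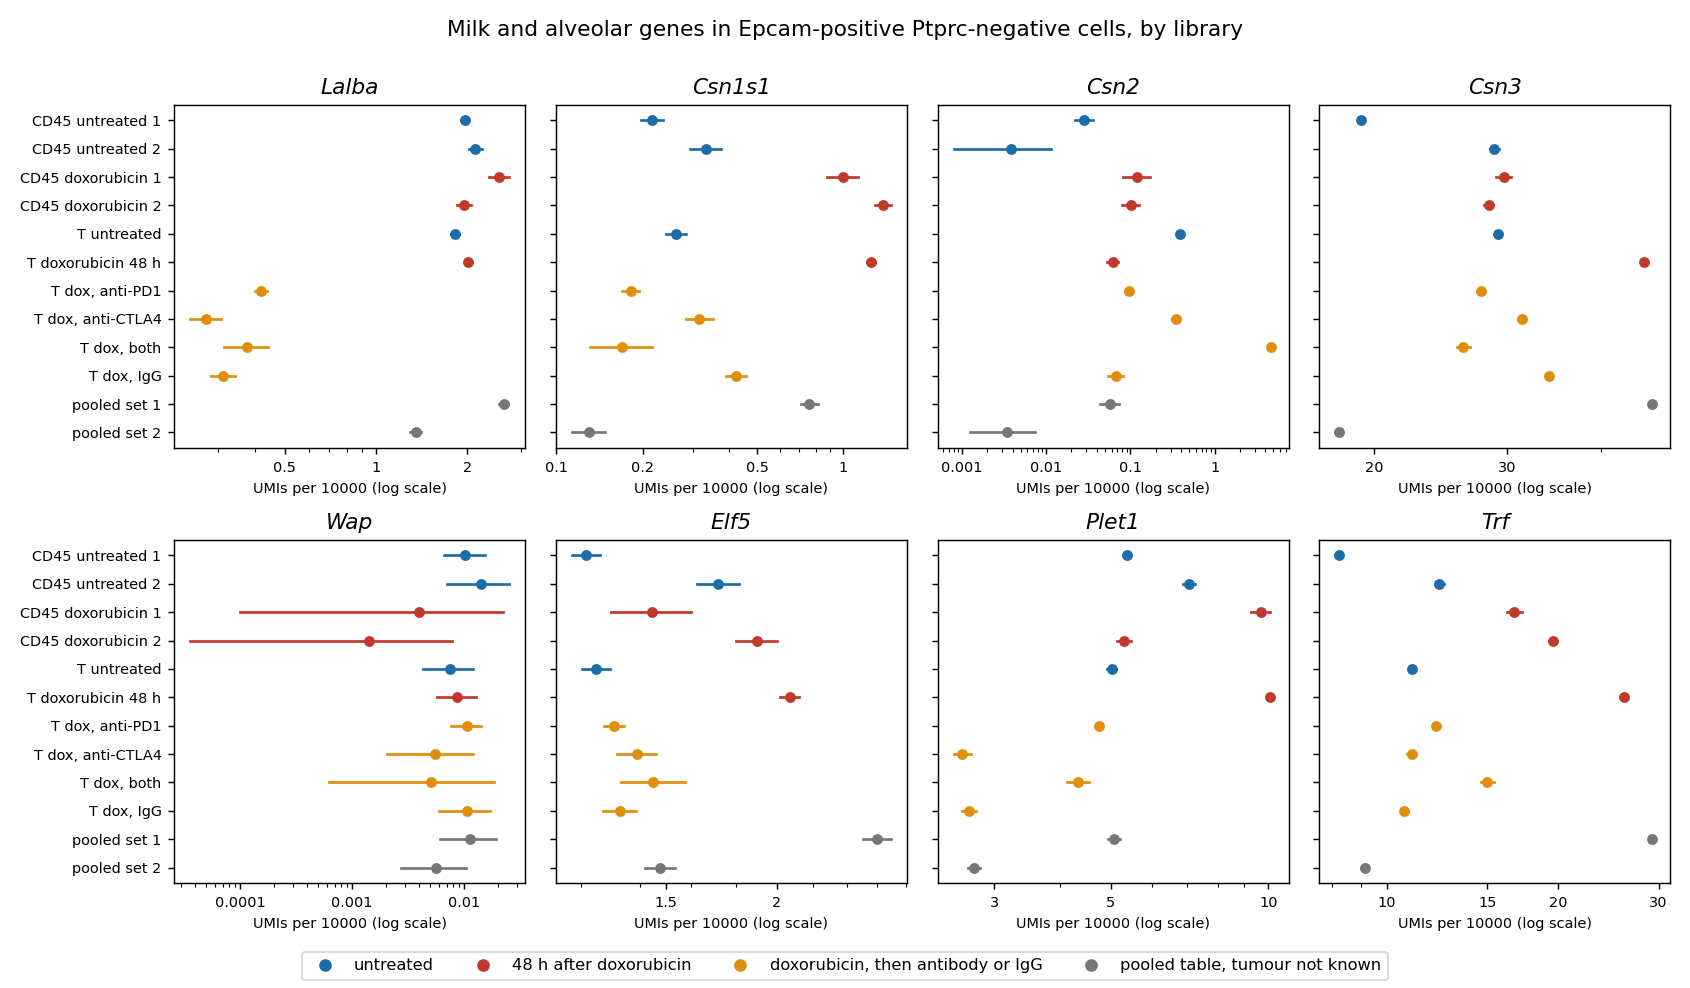
Level of each gene in Epcam-positive Ptprc-negative cells of the 10 sorted libraries and the 2 barcode sets of the pooled tumour table, in UMIs per 10000 on a log axis that differs between panels. Points are library sums and lines exact 95% Poisson intervals, which cover counting error only; Lalba sits below 0.42 in the 4 antibody arms and above 1.3 elsewhere, and Csn1s1 is at 0.99 or more in the 3 libraries harvested 48 h after doxorubicin.

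Csn1s1, the alpha-S1 casein, was the only member to pass the test of doxorubicin against untreated in the CD45 sort. Its level in epithelial cells of the CD45 sort was 0.215 and 0.331 UMIs per 10000 untreated and 0.993 and 1.37 after doxorubicin, so the groups did not overlap. The rise was 1.96 ± 0.27 on the log2 scale (SE; n = 2 against 2; adjusted p = 0.0244, edgeR quasi-likelihood test with Benjamini-Hochberg adjustment over 12926 genes). Of those genes 467 were called (3.61%), 217 higher (1.68%) and 250 lower, and of the members 1 of the 7 tested was called, with a median log2 change of 0.14 beside 0.01 over all genes tested. The T cell sort, which the test did not use, gave 0.261 untreated and 1.25 at 48 h.

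The Csn1s1 call depended on the libraries and cells used. Without the first untreated library the change was 1.67 (adjusted p = 0.180), and without the second 2.25 (adjusted p = 0.0571). Restricted to epithelial cells with fewer than 3 markers of every immune list, the levels were 0.223, 0.276, 0.757 and 0.664 in the same order, a change of 1.42 (adjusted p = 0.0788). That restriction left 29 cells in the first doxorubicin library. With the untreated and 48 h T cell-sorted libraries added and a term for the sort, 3 libraries against 3, the change was 2.003 ± 0.21 (adjusted p = 0.00337), where 2084 of 14483 genes were called (14.4%).

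Csn1s1 RNA sat in a small part of the cells. A UMI was found in 16.7 and 22.0% of untreated and in 28.9 and 23.1% of doxorubicin epithelial cells of the CD45 sort. After each cell was thinned to 2000 UMIs, to set aside depth, those shares were 4.598 and 7.14% against 14.1 and 8.71%. With the 10 highest cells of every library left out, the levels were 0.111 and 0.120 untreated and 0.227 and 0.485 after doxorubicin, and 0.160 and 0.942 in the T cell sort. The doxorubicin libraries were above the untreated ones by each of these measures.

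In the antibody arms, harvested later than the 48 h libraries, Csn1s1 was at 0.181 (anti-PD1), 0.315 (anti-CTLA4), 0.169 (both) and 0.424 (IgG). All 4 lie below the 3 libraries at 48 h, and the range of the 3 untreated libraries, 0.215 to 0.331, falls within theirs. Whether the arms differ from the 48 h library was not tested, since each is 1 library.

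Csn2, the beta casein beside Csn1s1, did not follow it across sorts. In the CD45 sort its level was 0.0284 and 0.00387 untreated (66 and 3 UMIs) and 0.120 and 0.101 after doxorubicin (30 and 71 UMIs), with a log2 change of 2.43 ± 0.76 that did not pass (adjusted p = 0.140, edgeR). In the T cell sort it was 0.391 untreated and 0.0614 at 48 h, so the order was the opposite. That order rests on few cells. Without the 10 highest cells of each library the levels were 0.00226 untreated and 0.00621 at 48 h, the other way round. Those 10 come out of 500 untreated cells and 1515 at 48 h, so the trim was unequal and does not settle the order. A Csn2 UMI was found in 2.8% of the untreated cells and 1.58% at 48 h, which keeps the order of the full levels. The highest level of any library, 4.69, was in the arm given both antibodies, where 1829 UMIs lay in 129 cells and 21.7% of them had a UMI. Leaving out the 10 highest cells brought that arm to 0.314 and every other library to at most 0.0185. Csn2 is thus a description of few cells: 0 to 14 cells per library held 10 or more Csn2 UMIs.

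Lalba, the lactose synthase subunit, was even in its full level between untreated and 48 h libraries and low in the antibody arms. In the CD45 sort it was at 1.97 and 2.12 untreated and 2.54 and 1.95 after doxorubicin, with overlapping groups and a log2 change of -0.01 ± 0.25 (adjusted p = 0.979, edgeR). The T cell sort gave 1.82 untreated and 2.02 at 48 h. The evenness depended on the highest cells. Without the 10 highest of each library, levels were 0.990 to 1.20 in the 3 untreated libraries and 0.231 to 1.73 in the 3 at 48 h, with medians of 1.08 and 0.741. That trim is unequal where cell numbers differ. The share of cells with a Lalba UMI was 30.6 to 32.8% untreated and 27.7 to 35.3% at 48 h. The arms gave 0.418 (anti-PD1), 0.274 (anti-CTLA4), 0.374 (both antibodies) and 0.313 (IgG), so the highest arm was 4.35-fold below the lowest of the other 6 libraries. The IgG arm was as low as the antibody arms, and with 1 library per arm and the same harvest time in all of them, time, antibody and tumour cannot be told apart.

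The low Lalba in the arms held in share of cells and in a second gate. A Lalba UMI was found in 27.7 to 35.3% of epithelial cells of the 6 untreated or 48 h libraries and in 11.6 to 15.9% of those of the 4 arms. At 2000 UMIs per cell the shares were 13.5 to 20.6% and 2.79 to 5.74%. Cells with UMIs of both Epcam and Ptprc, which the main gate leaves out, gave 0.450 to 1.57 UMIs per 10000 in the 6 libraries and 0.0688 to 0.201 in the arms. In luminal-marker cells alone the ranges were 2.11 to 2.74 and 0.355 to 0.468. The 6 libraries no longer all lay above the arms when the 10 highest cells were left out, because the first doxorubicin library of the CD45 sort, with 83 epithelial cells, went to 0.231 beside 0.267 in the anti-PD1 arm. They also did not when only cells with few immune markers were kept, where its 29 cells gave 0.293 beside 0.421 in that arm.

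Csn3, the kappa casein, was the steadiest milk protein gene. Its levels were 19.2 and 28.9 untreated and 29.7 and 28.4 after doxorubicin in the CD45 sort, groups that overlapped, and the log2 change was 0.12 ± 0.24 (adjusted p = 0.811, edgeR). In the T cell sort they were 29.1 untreated, 45.7 at 48 h, and 27.7, 31.4, 26.2 and 34.1 in the anti-PD1, anti-CTLA4, both-antibody and IgG arms. Thus the arms with the lowest Lalba had Csn3 within the range of the other libraries.

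Wap, the whey protein, stayed near the counting floor. The second doxorubicin library held 1 UMI in 264 cells and the first held 1 in 83, and the untreated libraries held 24 and 11. It did not pass the filter on low counts in this comparison and has no test there.

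Elf5, the alveolar transcription factor, was found in 52.2 to 74.7% of epithelial cells. The CD45 sort gave 1.22 and 1.72 untreated and 1.44 and 1.90 after doxorubicin, overlapping, with a log2 change of 0.02 ± 0.25 (adjusted p = 0.969, edgeR). The T cell sort gave 1.25 untreated, 2.07 at 48 h and 1.31 to 1.45 in the arms. Elf5 was therefore not among the genes that were low in the arms, while Lalba was.

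Plet1, the luminal progenitor surface protein, varied more between libraries than between the CD45 groups. It was at 5.36 and 7.05 untreated and 9.66 and 5.30 after doxorubicin, where the 2 treated libraries lay on either side of both untreated ones (log2 change 0.14 ± 0.36, adjusted p = 0.864, edgeR). In the T cell sort it was 5.02 untreated and 10.1 at 48 h, and 4.74, 2.60, 4.34 and 2.68 in the anti-PD1, anti-CTLA4, both-antibody and IgG arms. All 4 arms lay below the untreated library, the lowest of the other 6 being 5.02.

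Trf, transferrin, was at 8.23 and 12.4 untreated and 16.7 and 19.6 after doxorubicin in the CD45 sort. The groups did not overlap, and the log2 change of 0.66 ± 0.24 did not pass (adjusted p = 0.163, edgeR). The T cell sort gave 11.1 untreated and 26.1 at 48 h, and the 6-library fit with a term for the sort called it, at 0.79 ± 0.20 (adjusted p = 0.0373). The arms were at 12.2, 11.1, 15.0 and 10.7, below all 3 libraries at 48 h.

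The other genes of the milk programme were read from a list of 15 further milk and secretory genes. Of the 10 that could be tested, 1 rose and none fell, with a median log2 change of 0.57, where 1.68% of all genes tested rose. The 6-library fit called 14.4% of its genes in either direction. Of the list, 3 of 14 were called higher there (Ltf, Muc15 and Xdh, a milk fat globule enzyme), with a median of 0.28. Muc15, a mucin of the milk fat globule membrane, rose by 1.41 ± 0.25 (adjusted p = 0.0368, edgeR), from 0.388 and 0.298 to 0.814 and 1.25 UMIs per 10000. That call was lost without the first untreated (adjusted p = 0.208), the second untreated (0.256) or the second doxorubicin library (0.0569), and in cells with few immune markers (0.0794). Wfdc18, a secreted whey-type protease inhibitor family member, was the highest of the list at 25.4 and 39.8 untreated and 27.5 and 46.0 after doxorubicin (log2 change -0.004, adjusted p = 0.997). Mfge8, a milk fat globule protein, had a change of 0.59 (adjusted p = 0.191). Ltf, the iron-binding lactoferrin that neutrophil granules also hold, went from 0.241 and 0.111 to 2.56 and 8.77, a change of 4.78 ± 0.78 that did not pass (adjusted p = 0.0588). The neutrophil markers given above moved with it, and their part in the Ltf values was not tested.

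None of the 7 genes of the prolactin and STAT5 pathway passed edgeR's test, with a median log2 change of -0.07, where 3.61% of all genes tested were called. In the 6-library fit, which called 14.4% of its genes, 1 of the 7 was called, near that share. This was Id2, called higher (0.99 ± 0.24, adjusted p = 0.0340, edgeR), with a median of 0.15 over the 7. In the 4 CD45 libraries only Id2 was below an unadjusted p of 0.05 (log2 change 0.82, adjusted p = 0.169). Id2, a regulator needed for alveolar differentiation, was the highest of them at 2.29 and 1.36 untreated and 3.78 and 3.44 after doxorubicin. Prlr, the prolactin receptor, was at 0.371 and 0.636 against 0.638 and 0.905 (adjusted p = 0.403), and Socs2, a feedback inhibitor, was at 0.284 and 0.300 against 0.375 and 0.252 (adjusted p = 0.914).

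Of 7 luminal progenitor genes 1 rose, beside 1.68% of all genes tested. In the 6-library fit, which called 14.4% of its genes in either direction, 3 did: Aldh1a3, Ehf and Tspan8. Aldh1a3, an aldehyde dehydrogenase used to mark progenitors, went from 0.168 and 0.284 to 2.95 and 1.43, a log2 rise of 3.16 ± 0.51 (adjusted p = 0.0423, edgeR). Without the first or second untreated library its adjusted p was 0.209 and 0.0902, and in cells with few immune markers the change was 1.68 (adjusted p = 0.162). The 3 highest, Cebpb, Ehf and Cd14, had changes of -0.31, 0.59 and 0.34 with adjusted p of 0.501, 0.205 and 0.569. Of 7 hormone-sensing luminal genes 6 were tested and none passed, and none of the 3 highest, Ly6a, Areg and Prom1, passed (changes 1.002, 1.37 and 0.25). In the 6-library fit 1 of the 7 was called, near the 14.4% of all its genes. This was the oestrogen receptor gene Esr1, called higher (1.62 ± 0.35, adjusted p = 0.0246, edgeR).

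Epithelial cells were next split by markers into luminal and basal cells, using keratins and other genes that are not members. Lalba was 11.6-fold higher in luminal than in basal cells as a geometric mean over the 9 libraries with at least 10 basal cells, Elf5 13.7-fold, Plet1 20.7-fold, Csn3 5.34-fold and Trf 4.83-fold, on the scale of UMIs per 10000 plus 0.05. Each of these was higher in luminal cells in 9 of 9 libraries (exact two-sided sign-flip permutation p = 0.00391, the smallest it can give, adjusted p = 0.00521 over 8 genes). Csn2 passed the same test, but basal cells held 0 Csn2 UMIs in 4 of the 9 libraries and 1 UMI in 4 others, so the size of its fold is set by the added 0.05 and is not given. Csn1s1 was not higher in luminal cells throughout: the fold was 1.08, with luminal cells higher in 5 of 9 libraries (exact permutation p = 0.770). In the IgG arm basal cells held 0.838 Csn1s1 UMIs per 10000 and luminal cells 0.255, whereas at 48 h in the T cell sort basal cells held 0.180 and luminal cells 1.28. Wap differed by 1.18-fold on that scale, in 8 of 9 libraries (exact permutation p = 0.00781, adjusted p = 0.00893), at levels near the added 0.05.

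**Figure D2:**
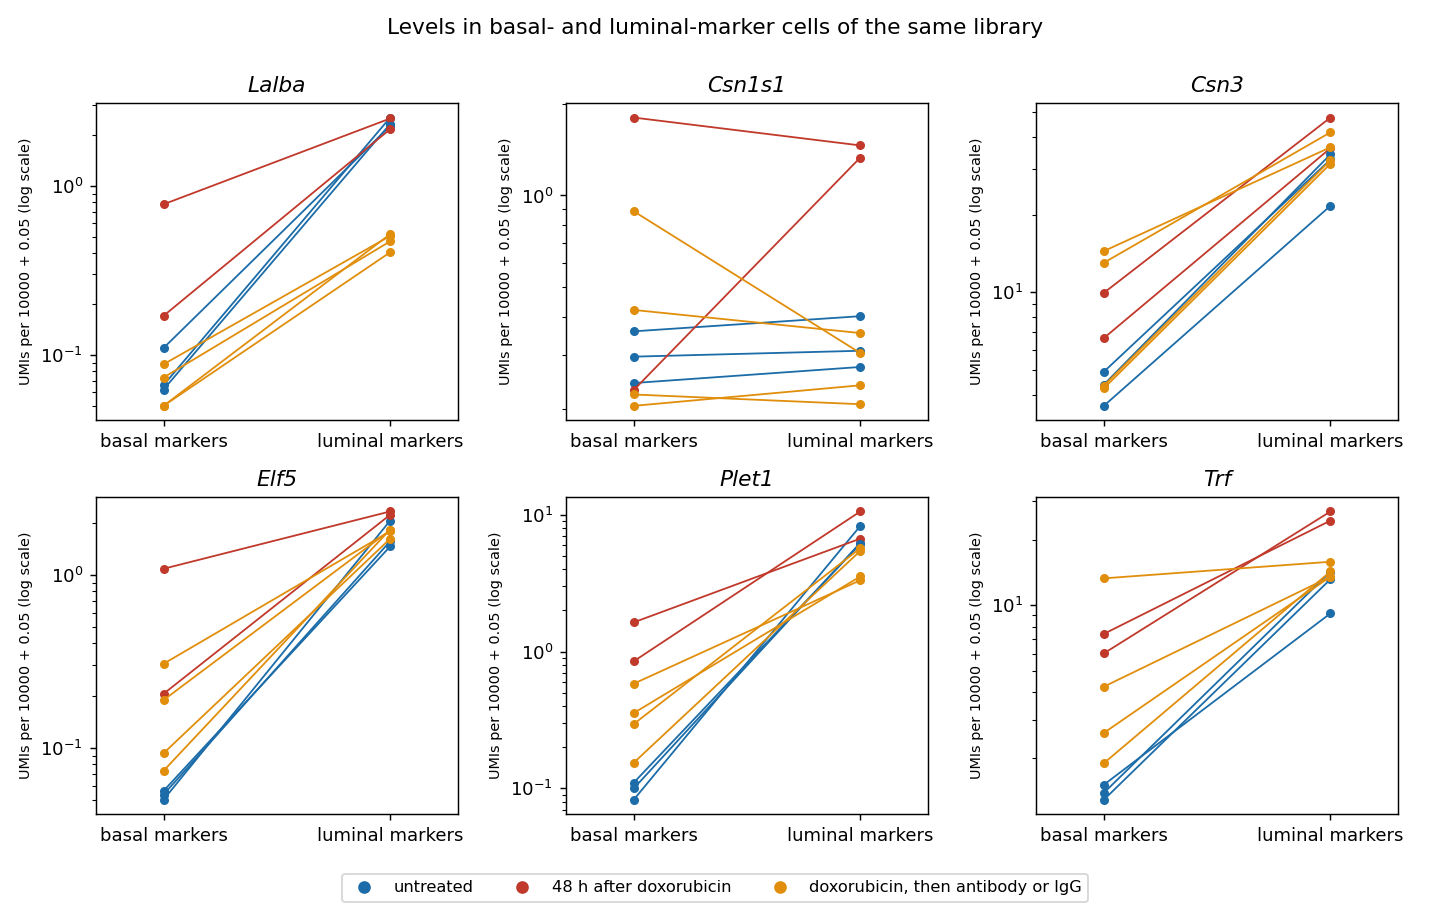
Level of 6 of the genes in basal-marker and luminal-marker cells, joined within each of the 9 sorted libraries with at least 10 basal cells, as UMIs per 10000 plus 0.05 on log axes. Lines for Lalba, Csn3, Elf5, Plet1 and Trf rise in every library, and those for Csn1s1 go both ways.

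The cells with many Lalba or Csn1s1 UMIs mostly held many Csn3 UMIs too. Many here means a raw count of 10 or more, not scaled for depth. Deeper cells reach it more easily for every gene, and the part of depth in these overlaps was not tested. Cells with many UMIs of Lalba or of Csn1s1 were each a minority, so cells with many of both were few. In the T cell sort at 48 h, 172 of 1515 epithelial cells held 10 or more Lalba UMIs and 105 held 10 or more Csn1s1 UMIs. Of those 105 cells 19 were Lalba-high, a larger share than among all 1515. With 1119 of the 1515 cells at 10 or more Csn3 UMIs, 169 of the Lalba-high and 102 of the Csn1s1-high cells were among them. In the first untreated CD45 library 78 cells were Lalba-high, 17 Csn1s1-high and 4 both, of 568. The Lalba-high share was again larger among the Csn1s1-high cells than among all 568, and neither overlap was tested. There 324 cells held 10 or more Csn3 UMIs, among them 71 of the Lalba-high and 13 of the Csn1s1-high cells. Among the 1434 epithelial cells of the pooled tumour table, Pearson's r of log-scaled levels was 0.05 between Lalba and Csn1s1 and -0.01 between Csn1s1 and Csn2, and 0.67 between Csn3 and Trf. Lalba stood at 0.40 with Csn3 and 0.38 with Trf, and Csn1s1 at 0.14 with Csn3. These correlations are across cells that share libraries and differ in depth, and are a description.

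The genes nearest to each member over those 1434 cells, among 14143 genes found in at least 1% of them, were Lrg1 (r = 0.45), Folr1 and Cyb5a for Lalba, and Chil1 (r = 0.20), Clca3a2 and Cel for Csn1s1. Cel, a bile salt-stimulated lipase, is among the listed milk genes. Trf was the nearest gene to Csn3 (r = 0.67), to Elf5 (r = 0.45) and to Plet1 (r = 0.57), and Igfbp5, an insulin-like growth factor binding protein, was the nearest to Trf (r = 0.76). Csn2, with UMIs in 15 cells, was nearest to Hsf4, Comp and C78859. Wap, in 14 cells, was below the minimum.

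All 8 members were higher in epithelial than in immune cells. Over the 4 CD45 libraries, with the library as a block, the log2 differences were 9.07 ± 0.77 for Csn2, 7.68 ± 0.26 for Csn1s1, 7.58 ± 0.25 for Elf5, 7.49 ± 0.32 for Csn3, 7.33 ± 0.27 for Lalba, 5.06 ± 0.48 for Plet1, 4.38 ± 0.89 for Wap and 2.67 ± 0.15 for Trf. The largest adjusted p of the 8 was 0.00603 (edgeR). Csn1s1, Csn2 and Wap did not pass the filter on low counts in immune cells alone. They entered this fit through their epithelial counts, so their p-values are not read as support. This comparison called 62.6% of all 15337 genes and 31.4% as higher in epithelial cells, so being called separates little. The fitted values of Csn2 and Wap depend on the prior count, since immune cells of these libraries held 0 and 2 UMIs of them beside 170 and 37 in epithelial cells. From the summed counts Csn2 was at least 105-fold higher in epithelial cells, set against a floor of 3 counts over the group, and Wap 34.3-fold higher (exact 95% interval 8.84 to 294, counting error only). Over all 10 libraries, where 74.3% of genes were called, the difference was again smallest for Trf, at 3.67 ± 0.38, and next for Plet1 and Wap, at 5.63 ± 0.34 and 5.74 ± 0.54.

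Milk RNA in immune cells can be free RNA from broken epithelial cells taken up into every droplet. It can also be RNA of an epithelial cell joined with an immune cell in 1 droplet. Either source would put all its genes near 1 ratio to their epithelial level if its cells were like the average epithelial cell read here. That likeness was not tested, and the ratio does not tell the 2 sources apart. The share of immune cells with 3 or more luminal markers ran from 0.448% (second doxorubicin library, CD45 sort) to 10.96% (T cell sort, 48 h). The part of these cells in the ratios was not tested. Csn3, the most abundant, stood in immune cells at 0.229 to 1.40% of its epithelial level over the 10 libraries, or 0.06003 to 0.389 UMIs per 10000. Lalba stood at 0.296 to 1.58% and Elf5 at 0.187 to 0.927%. Relative to the Csn3 ratio of the same library, that of Lalba was 1.21-fold (exact sign-flip permutation p = 0.313), that of Csn1s1 0.993-fold (p = 0.957, the same exact test) and that of Elf5 0.846-fold (exact p = 0.0508, adjusted p = 0.0813). The Csn3, Lalba, Csn1s1 and Elf5 ratios thus did not differ beyond the spread between libraries, with folds over single libraries of 0.498 to 3.81 for Lalba.

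Trf and Plet1 did not share the Csn3 ratio. Trf in immune cells stood at 1.42 to 15.5% of its epithelial level, 12.1-fold the Csn3 ratio (3.56- to 41.0-fold; higher in 10 of 10 libraries; exact sign-flip permutation p = 0.00195, the smallest it can give, adjusted p = 0.00521 over 8 genes). Plet1 stood at 0.644 to 4.97%, 3.16-fold the Csn3 ratio (1.21- to 16.5-fold; higher in 10 of 10; same exact p). Keratins that are no members were also above or near the Csn3 ratio, by less, 1.58-fold for Krt8 (9 of 10 libraries, exact p = 0.00586), 1.48-fold for Krt19 (10 of 10, exact p = 0.00195, adjusted p = 0.00521) and 1.13-fold for Krt18 (exact p = 0.127).

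**Figure D3:**
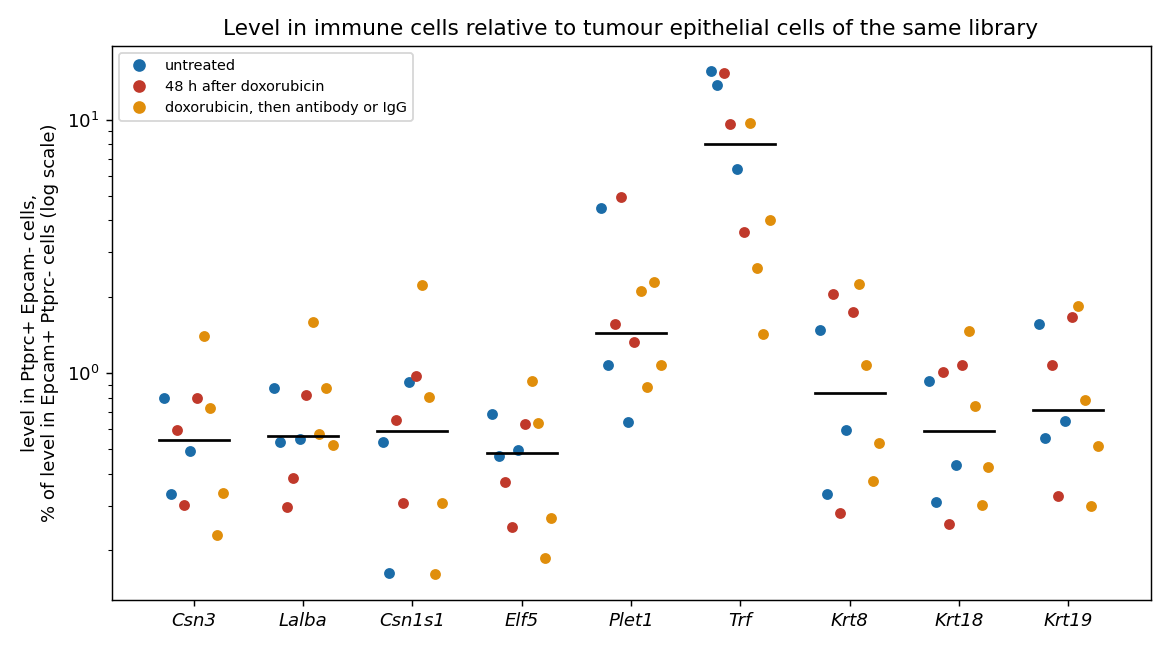
Level in Ptprc-positive Epcam-negative cells as a percentage of the level in Epcam-positive Ptprc-negative cells of the same library, on a log axis, for 6 of the genes and 3 keratins. Each point is 1 of 10 sorted libraries and each bar the median; Trf lies between 1.42 and 15.5%, above Csn3 in every library.

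Csn2 was read in the same way, since its epithelial level differed so much between arms. Immune cells held 0 to 3 Csn2 UMIs in 8 of the 10 libraries, and 40 and 32 in the both-antibody and anti-CTLA4 arms, where epithelial levels were 4.69 and 0.350. In the both-antibody arm the immune level of Csn2 was 0.232% of its epithelial level, beside 0.229% for Csn3, and a Csn2 UMI was found in 1.34% of immune cells there. The match was not general: the anti-CTLA4 arm gave 2.89% for Csn2 beside 0.728% for Csn3. Of the 1787 Csn2 UMIs in kept cells of that arm, 21.2% lay in the epithelial cells. Cells with UMIs of both Epcam and Ptprc, which neither gate takes, held 76.0%. In the both-antibody arm 79.9% of 2288 lay in the epithelial cells. The epithelial level of the anti-CTLA4 arm thus leaves out most of its Csn2 UMIs. The untreated T cell library, with an epithelial Csn2 level above that of the anti-CTLA4 arm, held 2 UMIs in immune cells and gave 0.176% beside 0.495%.

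Immune cells were then grouped by the marker list of which they held most genes, with at least 3 markers and 30 cells per class. Cells with macrophage or monocyte markers held 2.21 to 6.12 Trf UMIs per 10000, and cells with T cell markers 0.0770 to 0.266. The fold within a library was 17.6 on average (8.93 to 38.1; 10 of 10 libraries; exact sign-flip permutation p = 0.00195, adjusted p = 0.00391 over 6 genes). At 2000 UMIs per cell, a Trf UMI was in 24.7 to 62.8% of macrophage- or monocyte-marker cells and in 1.02 to 5.91% of T cell-marker cells. Without thinning the shares were 61.2 to 84.5% and 7.43 to 22.0%, at median depths of 6767.5 to 19063 and 6006 to 10262 UMIs. Neutrophil-marker cells lay between, at 0.879 to 2.002 UMIs per 10000 in the 7 libraries with enough of them.

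On the same measure Csn3 was 1.26-fold higher in macrophage- or monocyte-marker cells (10 of 10 libraries, adjusted exact permutation p = 0.00391), up to 1.90-fold in a single library, and the keratin Krt8 1.16-fold (exact p = 0.0664). The added 0.05 damps these folds, since Csn3 in T cell-marker cells lay as low as 0.0574 UMIs per 10000. Lalba and Elf5 were below 0.05 in both classes of every library, so the added amount sets their folds near 1 and they are not compared. In the first untreated CD45 library Lalba was at 0.0210 in macrophage- or monocyte-marker cells and 0.00758 in T cell-marker cells.

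Plet1 was 2.54-fold higher in macrophage- or monocyte-marker cells (1.05- to 24.8-fold, 10 of 10 libraries, exact permutation p = 0.00195, adjusted p = 0.00391), but unevenly. It was at 1.99 UMIs per 10000 in that class of the both-antibody arm and 0.507 in that of the second doxorubicin library, and at 0.0160 to 0.333 in the other 8. The 10 highest cells held all Plet1 UMIs of the class in the both-antibody arm and 82.7% in the second doxorubicin library. A UMI was in 9.46 and 6.20% of cells there. The 42 cells with dendritic cell markers in the first untreated CD45 library held 0.742, all of it in 10 cells or fewer.

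**Figure D4:**
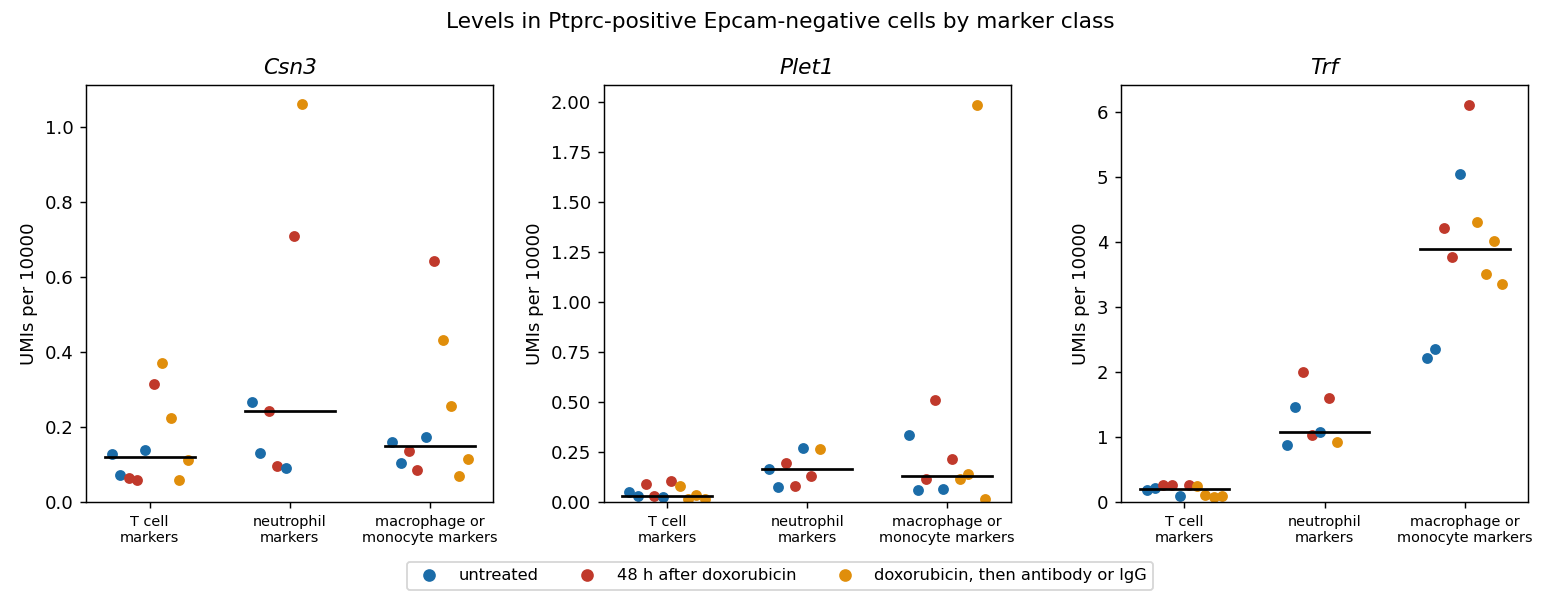
Csn3, Plet1 and Trf in Ptprc-positive Epcam-negative cells grouped by marker class, in UMIs per 10000 from 0. Each point is 1 library with at least 30 cells of the class and each bar the median; Trf is at 2.21 to 6.12 in macrophage- or monocyte-marker cells and at most 0.266 in T cell-marker cells, while 1 library stands at 1.99 for Plet1.

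Doxorubicin changed no member in immune cells of the CD45 sort at an adjusted p of 0.05 (edgeR), where 1173 of 13845 genes were called (8.47%). Trf was at 1.28 and 1.69 untreated and 2.55 and 1.89 after doxorubicin (log2 change 0.57 ± 0.26, unadjusted p = 0.0697, adjusted p = 0.205). The class in which Trf was highest had other shares of these cells: macrophage- or monocyte-marker cells numbered 952 and 553, beside 279 and 94 neutrophil-marker cells, in the untreated libraries, and 169 and 597, beside 703 and 1753, after doxorubicin. Within that class Trf was at 2.21 and 2.35 untreated and 4.22 and 3.78 after doxorubicin, groups that did not overlap. This within-class difference was not tested. Lalba had a change of -0.95 ± 0.54 (adjusted p = 0.295), Elf5 -0.74, Plet1 0.36 and Csn3 0.05, and Csn1s1, Csn2 and Wap did not pass the filter on low counts. Of the 5 members tested none was below an unadjusted p of 0.05.

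The pooled table of unsorted tumour cells holds 2 barcode sets of 1508 and 2508 cells that share no barcode and are not tied to the untreated or the doxorubicin tumour, so the sets are given side by side and not compared. Set 1 had 681 epithelial cells (45.2%) and set 2 had 753 (30.02%). In set 1 and set 2 the levels were 46.7 and 17.9 for Csn3, 29.2 and 9.13 for Trf, 5.07 and 2.74 for Plet1, 2.64 and 1.35 for Lalba, 2.60 and 1.48 for Elf5, 0.760 and 0.130 for Csn1s1, 0.0570 and 0.00339 for Csn2 and 0.0114 and 0.00566 for Wap. Trf in macrophage- or monocyte-marker cells was at 4.15 and 2.77, and in T cell-marker cells at 0.279 and 0.0977. As in the sorted libraries, Csn3 was the highest, Trf next and Plet1 the third.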

How the data were processed

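Single-cell libraries of 10 sorted samples and 1 pooled tumour table were used. The deposited values are whole-number UMI counts per gene and barcode, which the authors made with Cell Ranger; the headers give version 6.0.0 and the labels GRCm38. The submitters' processing notes add Seurat for the pooled table. The sorted matrices name no genes, so rows were named by the order of the pooled table. Across genes, row totals correlated with that table (r of 0.954 to 0.984), and moving the rows by 1 to 50 places left r at 0.354 or less. Barcode names were used for the pooled table only, so barcodes shared between sorted libraries were not counted. A bulk table of 12 columns that match no sample, and the ATAC samples, were not analysed here.

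Cells with at least 500 UMIs, 200 genes and under 20% mitochondrial UMIs were kept. Sums of counts per gate and library went into edgeR 4.0.16 (R 4.3.3; filterByExpr, TMM scaling and the quasi-likelihood test with robust fitting), with Benjamini-Hochberg adjustment over all genes tested and a threshold of 0.05. SE is the log2 change divided by the root of F. On simulated counts the epithelial fit recovered 82.7% of genes changed by 2 log2 units and 16.2% of those changed by 1, with 21 of 118 calls false. Exact sign-flip permutation tests over libraries, 95% exact Poisson and Clopper-Pearson intervals and thinning used Python 3.11.15 and scipy 1.17.1; folds between levels add 0.05 UMIs per 10000. Intervals cover counting error only. DESeq2 1.42.0, RLE scaling, filters, gates and left-out libraries were alternatives. Replicate numbers of the CD45 libraries are names, since the labels tie no number to a shared mouse or day.

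The named genes are the 8 members, the 3 genes most like each member over pooled epithelial cells, and of 4 related lists the 3 with the highest mean level and any that passed. Members and lists were chosen with earlier results of these data known. The luminal and basal split, the sign-flip tests, the 6-library fit and the gate on few immune markers were chosen after seeing the data.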

Additional observations from a re-analysis of the deposited data

Results flagged for a closer look

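Csn2 in epithelial cells went opposite ways in the 2 sorts. Both doxorubicin libraries of the CD45 sort lay above both untreated ones, while the T cell sort fell from 0.391 UMIs per 10000 untreated to 0.0614 at 48 h; the difference between sorts was not tested. Leaving out the 10 highest cells brought those T cell libraries to 0.00226 and 0.00621, the other way round. That trim is unequal, since the libraries held 500 and 1515 epithelial cells. The share of cells with a Csn2 UMI, 2.8% untreated and 1.58% at 48 h, kept the order of the full levels.

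Wap went the other way round, with both doxorubicin libraries of the CD45 sort (0.00399 and 0.00142, 1 UMI each) below both untreated ones, and the T cell sort at 0.00747 untreated and 0.00872 at 48 h (17 and 27 UMIs). This difference was not tested either.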

How the results depend on the processing

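Of 265 member values under alternatives, 257 kept their direction where called and their side of the threshold, 3 lost the call and 5 gained one. The 3 lost were those of Csn1s1 given above. Csn2 gained one with DESeq2 (2.54, adjusted p = 0.0254), without the low-count filter and with the replicate block, and Trf with the block and in the 6-library fit. The 467 genes called in epithelial cells became 1113 with DESeq2, 2024 without the filter, 63 with few immune markers, 2084 in the 6-library fit, and 37 to 621 when a library was left out (37 and 69 without the first and second untreated). The 1173 called in immune cells became 2294 with DESeq2, 3516 without the filter, 25 in the 6-library fit, and 0 to 939 with a library left out: 158 and 0 without the first and second untreated, 419 without the first doxorubicin one. The replicate block gave 2335 and 2061; same-numbered libraries deviated together at r of 0.266 and 0.346, over 2 pairs, and as far as the labels say they share only a number. The share of epithelial cells stayed lower after doxorubicin under each alternative, by 4.24 to 9.75 points with a library left out. The median share of macrophage- or monocyte-marker cells with a Trf UMI was 76.4%, and 43.0% at 2000 UMIs. The lowest Lalba value of the 6 libraries over the highest of the arms, 4.35, was 2.24 in cells with both Epcam and Ptprc UMIs, 2.35 as thinned share of cells, 0.865 without the 10 highest cells and 0.696 with few immune markers. Depth limits Wap and Csn2, where 1 to 3 UMIs set some values.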
